A study of Mus musculus with 12 samples.

Results

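Mitochondrial ribosomal proteins were followed in a mouse hepatic stellate cell line through 78 genes, chosen as every row of the deposited expression table whose mouse symbol is Mrpl or Mrps followed by a digit, pseudogenes left out. They were 78 of 15720 gene identifiers. The rule used symbols and no measured value, but it was set with earlier results of these data known. The line, EMS404, derives from C57Bl6 liver, was immortalized with SV40 and expresses human TLR4. All cells were transfected with siRNA, and 48 h later treated for 24 h. The 4 groups held 3 libraries each: Bmal1 siRNA with 10 ng/mL TGFb, scrambled siRNA with 10 ng/mL TGFb, Bmal1 siRNA with vehicle, and scrambled siRNA with vehicle. Bmal1 is the core clock transcription factor encoded by Arntl, and TGFb turns stellate cells into matrix-producing myofibroblasts. The series asked how the knockdown alters the response to TGFb. Libraries are named here by siRNA, treatment and replicate, as in scrambled vehicle 1.

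Mitochondria translate the few messages of their own DNA, all of which encode subunits of the respiratory chain and ATP synthase, on a dedicated ribosome. Its rRNAs come from mitochondrial DNA, but all of its proteins are encoded in the nucleus, made in the cytosol and imported. The large subunit forms the peptide bond and the small subunit reads the codons. Many of the proteins descend from bacterial ribosomal proteins, and the others are additions of mitochondria. Symbols do not always give the subunit: Mrps30 and Mrps18a belong to the large subunit, and the product of Mrps36 is now known as a component of the 2-oxoglutarate dehydrogenase complex. By subunit, 51 of the genes encoded large-subunit and 26 small-subunit proteins, and 46 had a bacterial counterpart against 31 specific to mitochondria.

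The libraries had FPKM totals of 445472 to 483957 and 13673 to 13975 genes above 0. Arntl averaged 4.35 FPKM with Bmal1 siRNA and TGFb, 10.7 with scrambled siRNA and TGFb, 3.79 with Bmal1 siRNA and vehicle and 5.18 with scrambled siRNA and vehicle, so the targeted gene was lower after its siRNA under both treatments. All 7 stellate markers analysed were above 0, among them Col1a1, Col1a2, Vim and Acta2. Des ran from only 0.52 to 1.23 FPKM. Lrat and Reln, also listed as stellate markers, had no row among the identifiers analysed. The same held for the listed hepatocyte markers Alb and Ttr and the leukocyte markers Ptprc and Adgre1. Summed hepatocyte, leukocyte and endothelial markers (2, 2 and 4 genes) stayed at or under 0.54 FPKM in every library, and the 3 cholangiocyte markers summed to 2.19 to 8.2 FPKM. The 3 mesothelial markers Upk3b, Msln and Wt1 were all present. Their sum was 61.1 to 119 FPKM (Bmal1 siRNA) and 65.2 to 89.4 FPKM (scrambled siRNA) in TGFb libraries, against 222 to 239 and 203 to 233 FPKM in vehicle libraries of the same siRNAs. By gene, Upk3b averaged 50.5 and 39.9 FPKM with TGFb (Bmal1 and scrambled siRNA), against 187 and 177 FPKM with vehicle. Wt1 averaged 22 and 20.7 FPKM, against 30.4 and 31 FPKM. Msln averaged 13.3 and 16.7 FPKM, against 14.9 and 10.9 FPKM, so with scrambled siRNA it was higher under TGFb. In bulk RNA of this kind, fewer cells of a type and less RNA per cell cannot be told apart.

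One library stood apart for these genes. The summed FPKM of the 78 genes was 3150, 3220 and 3330 in the libraries of Bmal1 siRNA with TGFb, and 3010, 3090 and 3060 in those of scrambled siRNA with TGFb. It was 3040, 2940 and 3010 with Bmal1 siRNA and vehicle, against 3600, 3150 and 3210 with scrambled siRNA and vehicle. Scrambled vehicle 1 was thus the highest of all 12 libraries, and the other libraries spanned 2940 to 3330. It held the highest value of the 12 libraries for 43 of the 78 genes (55.1%), compared with 17.8% of all genes tested. In 73 of the 78 it lay above the mean of the other replicates of its group, by a median of 0.16 on the log2(FPKM + 1) scale, whereas the same was true of 49.3% of all genes. Both comparisons with that group, and the interaction, are therefore given with and without it.

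**Figure D1:**
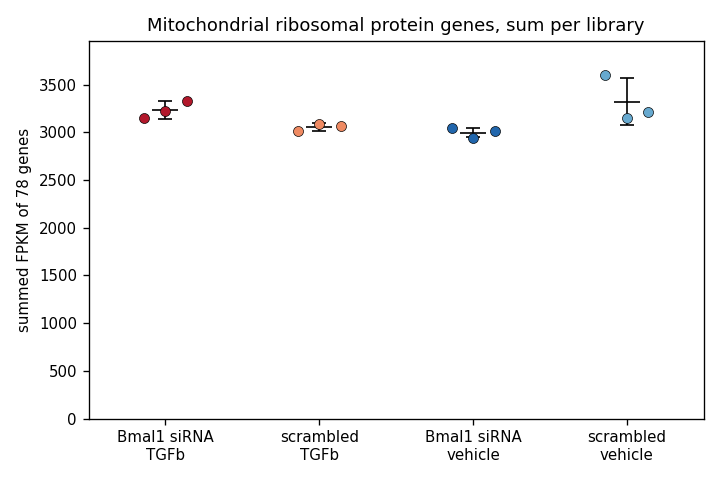
Summed FPKM of the 78 genes (vertical axis, starting at 0) in each of the 12 libraries, by group along the horizontal axis. Points are libraries in replicate order, bars are the mean and SD of 3. The means and SDs were 3230 ± 91.4 FPKM (Bmal1 siRNA, TGFb), 3060 ± 40.6 FPKM (scrambled siRNA, TGFb), 2990 ± 51.9 FPKM (Bmal1 siRNA, vehicle) and 3320 ± 244 FPKM (scrambled siRNA, vehicle), and the highest point is scrambled vehicle 1 at 3600 FPKM.

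The genes lay on 17 chromosomes, and many had close neighbours. A protein-coding gene on the opposite strand started within 1000 bp upstream, or overlapped by up to 200 bp, at 23 of 78 genes (29.5%), as it did at 12.9% of 11202 protein-coding genes tested. Fau and Ppp1r10 start 59 and 45 bp from Mrpl49 and Mrps18b. In 33 of the 78 genes, exon bases were shared with another annotated gene, in 23 of them with a protein-coding one. The sources used here do not give the use of strand in counting, so reads of such pairs cannot be told apart. Among genes described here the longest were in Mrps25, with 4590 exon bases shared with Nr2c2, and Mrpl19, with 1962 shared with Gcfc2. These count all annotated exons of the gene. The median transcript lengths, a different measure, were 6073 and 5000 bases, so the shared part of a transcript is not known. The shared length was 91 bases for Mrpl49 (Syvn1), 75 for Mrpl27 (Eme1), 106 for Mrpl14 (Tmem63b), 708 for Mrpl48 (Rab6a) and 157 for Mrpl9 (Oaz3). It was 330 bases for Mrpl13 (Mtbp), 173 for Mrps11 (Mrpl46), 30 for Mrpl36 (Ndufs6) and 305 for Mrps6 (Gm49711), and 623 for Mrps30 (B430218F22Rik) and 141 for Mrpl18 (Tcp1). With genes that are not protein-coding, Mrps18b shared 638 bases (Gm16279), Mrpl33 261 (Gm43809), Mrps18c 250 (Gm43511), Mrpl12 200 (Gm16755), Mrpl51 87 (Mir3098) and Mrpl58 2 (Ict1os).

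Promoters are shown for the called gene with the largest fall or rise in each comparison that had calls, and for Mrpl49, which was called in 3 comparisons and was chosen after its values were seen. Each window runs from 250 bases before the RefSeq start (build GRCm38.p6) to 50 after it, 5′ to 3′ on the gene's strand. The windows are chr3:95871465-95871764, minus strand, for Mrps21, chr16:92058086-92058385, plus strand, for Mrps6, and chr19:6057706-6058005, minus strand, for Mrpl49. Those of Mrpl1 (chr5:96209865-96210164, plus strand), Mrps18b (chr17:35916391-35916690, minus strand) and Mrps9 (chr1:42850983-42851282, plus strand) follow. Capitals mark matches to the motifs searched.
Mrps21 promoter: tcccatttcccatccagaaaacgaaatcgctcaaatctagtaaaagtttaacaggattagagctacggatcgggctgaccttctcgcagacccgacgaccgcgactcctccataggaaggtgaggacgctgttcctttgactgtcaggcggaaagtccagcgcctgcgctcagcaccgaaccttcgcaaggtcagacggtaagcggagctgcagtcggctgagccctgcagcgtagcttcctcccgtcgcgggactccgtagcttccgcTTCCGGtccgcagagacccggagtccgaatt
Mrps6 promoter: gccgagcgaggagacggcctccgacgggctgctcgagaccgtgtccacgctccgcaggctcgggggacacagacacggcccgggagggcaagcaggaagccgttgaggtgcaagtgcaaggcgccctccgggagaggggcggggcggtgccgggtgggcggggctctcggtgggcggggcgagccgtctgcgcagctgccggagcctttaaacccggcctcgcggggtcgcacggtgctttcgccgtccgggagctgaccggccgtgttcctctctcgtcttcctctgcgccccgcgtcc
Mrpl49 promoter: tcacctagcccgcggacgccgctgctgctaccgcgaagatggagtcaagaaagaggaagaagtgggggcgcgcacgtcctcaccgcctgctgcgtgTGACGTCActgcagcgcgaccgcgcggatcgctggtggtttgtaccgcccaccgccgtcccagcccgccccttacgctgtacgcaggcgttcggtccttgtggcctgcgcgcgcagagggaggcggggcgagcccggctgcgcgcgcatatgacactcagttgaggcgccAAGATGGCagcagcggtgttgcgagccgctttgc
Mrpl1 promoter: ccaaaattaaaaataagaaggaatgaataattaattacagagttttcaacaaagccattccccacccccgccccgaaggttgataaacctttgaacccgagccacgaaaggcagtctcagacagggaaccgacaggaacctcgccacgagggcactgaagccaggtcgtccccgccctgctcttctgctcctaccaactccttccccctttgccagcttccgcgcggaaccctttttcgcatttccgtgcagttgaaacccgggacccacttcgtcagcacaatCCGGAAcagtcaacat
Mrps18b promoter: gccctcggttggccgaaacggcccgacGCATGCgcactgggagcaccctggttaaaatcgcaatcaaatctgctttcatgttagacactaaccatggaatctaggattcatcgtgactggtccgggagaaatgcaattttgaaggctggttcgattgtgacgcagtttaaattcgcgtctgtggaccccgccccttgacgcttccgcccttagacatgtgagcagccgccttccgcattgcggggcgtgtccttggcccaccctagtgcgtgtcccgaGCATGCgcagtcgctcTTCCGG
Mrps9 promoter: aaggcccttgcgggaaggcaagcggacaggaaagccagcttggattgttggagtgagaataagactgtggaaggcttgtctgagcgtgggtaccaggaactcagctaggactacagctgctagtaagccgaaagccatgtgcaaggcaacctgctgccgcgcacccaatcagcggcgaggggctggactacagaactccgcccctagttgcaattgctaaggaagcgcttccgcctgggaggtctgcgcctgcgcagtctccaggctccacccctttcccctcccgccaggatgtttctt

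Motifs were searched as exact letters on both strands: the ETS core CCGGAA, YY1 as AAGATGGC, the NRF1 core GCATGC, the longer NRF1 palindrome that holds this core at its centre, the E-box CACGTG bound by CLOCK and BMAL1, the D-box TTATGTAA, the TATA box TATAAA, CRE as TGACGTCA and the SMAD palindrome GTCTAGAC. Windows were matched for 69 of the 78 genes. Shares of these 69 genes and of 8936 tested genes count a gene once if any of its windows matched. Shares of all 32851 windows count single windows, so they are a different measure. In the windows shown, the ETS core stood at +35 of Mrpl1, +20 of Mrps21 and +45 of Mrps18b, counted from the start. Mrpl49 had a CRE at -154 and the YY1 letters at +17, and Mrps18b had the NRF1 core at -223 and +29. Mrps6 and Mrps9 held none of the letters. The ETS core was in 58.0% of the 69 genes, compared with 33.4% of 8936 tested genes and 14.9% of all 32851 windows. YY1 letters were in 17.4% of the 69, compared with 5.64% of tested genes and 2.75% of all windows. The E-box was in 7.25% (Mrpl2, Mrpl20, Mrpl36, Mrpl37 and Mrps18c), compared with 12.1% of tested genes and 7.15% of all. The longer NRF1 palindrome was in 4.35% of the 69, 2.45% of tested genes and 0.971% of all windows, and its core was in 13%, 11.7% and 7.93% of these. TATA letters were in 7.25%, 8.02% and 13.6% and CRE in 2.9%, 3.76% and 1.79%. Neither the D-box nor the SMAD letters occurred in windows of the 69 genes, and they occurred in 0.515% and 0.313% of tested genes and in 0.938% and 0.213% of all windows.

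All 78 genes were expressed, and all passed the filter of a mean of at least 0.5 FPKM that left 11208 genes for testing. FPKM counts fragments per kilobase of transcript, so levels set between genes depend on the length taken for each transcript. The median level of the 78 was 32.5 FPKM, above 75.9% of all genes tested, whose median was 12.9 FPKM. Large-subunit genes had a median of 32.6 FPKM and small-subunit genes 28.5 FPKM. The highest was Mrpl52, a large-subunit protein of mitochondria, at a mean of 221 FPKM. Next came Mrpl12, the stalk protein that contacts translation factors, at 150 FPKM, and Mrpl54, another mitochondria-specific large-subunit protein, at 124 FPKM. The lowest were Mrps25, of the small subunit, at 3.85 FPKM, Mrpl19 at 5.94 FPKM and Mrpl41 at 6.30 FPKM, both of the large subunit. The levels of Mrps25 and Mrpl19 rest on transcripts that share many exon bases with a neighbour, as given above. Of the 78, 4 genes reached 100 FPKM and 6 stayed under 10 FPKM. Mrpl52 also had the shortest median transcript of the 78 (440.5 bases), and Mrps25 and Mrpl19 had the longest (6073 and 5000 bases). Mrpl41, also among the lowest, had 776 bases. The part of transcript length in this order was not tested.

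Levels moved little between conditions. The highest group mean was a median of 1.16-fold over the lowest, 5 genes reached 1.3-fold, and Mrps21, at 1.53-fold, was the single gene past 1.5-fold. Tests used limma on log2(FPKM + 1) over all 12 libraries, with p-values adjusted by Benjamini and Hochberg's method over all 11208 genes, and genes with an adjusted p under 0.05 are the ones called. All differences below are on that scale and all adjusted p-values come from limma. The labels call the triplicates biological without saying that they were separate cultures, so the p-values weigh differences against the spread of these libraries alone, part of which may be technical.

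**Figure D2:**
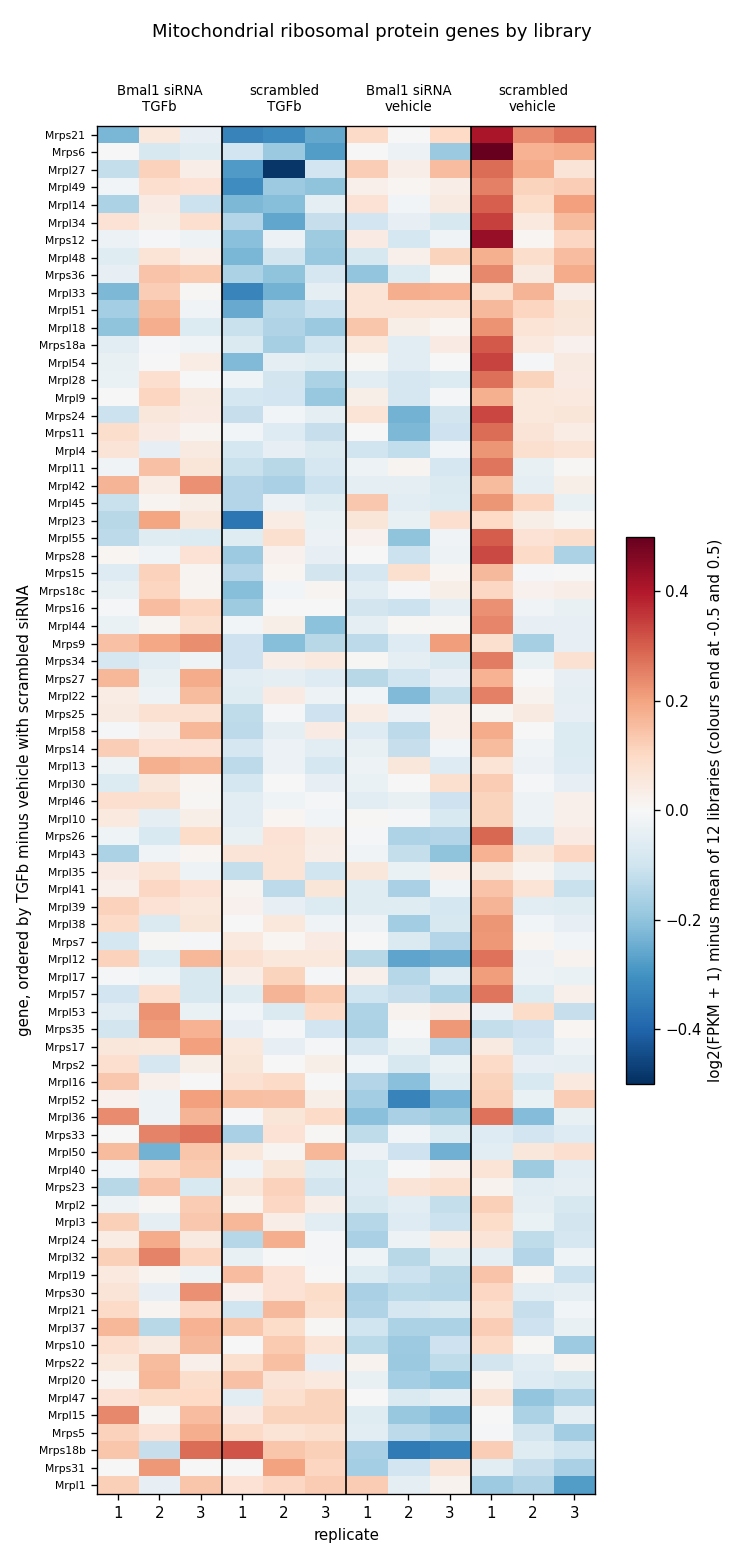
Each row is 1 of the 78 genes, ordered by TGFb minus vehicle with scrambled siRNA, and each column 1 library, grouped by siRNA and treatment. Colour is log2(FPKM + 1) minus the gene's mean over the 12 libraries, with the colour scale ending at -0.5 and 0.5. Scrambled vehicle 1 is red in most rows, and rows near the top (Mrps21, Mrps6, Mrpl27, Mrpl49) are blue in the TGFb libraries with scrambled siRNA.

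With scrambled siRNA, TGFb lowered 19 mitochondrial ribosomal protein genes and raised 3. That is 28.2% of the 78, against 45.5% of all genes called in either direction (16.4% higher, 29.1% lower). The median difference was -0.06 over the 78 genes and -0.05 over all genes. The TGFb libraries lay below all vehicle libraries in 23 of 78 genes (29.5%), against 34.7% of all genes, and above them in 5 (6.41%, against 20.3%). Without scrambled vehicle 1 the counts were 15 lower and 4 higher, and the median was -0.015. Scaling moved the split: 14 lower and 7 higher with median-of-ratios scaling, 17 and 7 with equal FPKM totals, and 18 and 5 with quantile normalization. The shares of all genes called under each scaling are not given here.

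The largest fall was in Mrps21, a small-subunit protein with a bacterial counterpart. It had 80.7, 81.8 and 85.3 FPKM with TGFb, against 136, 120.4 and 123 FPKM with vehicle. Every TGFb library lay well under every vehicle library, and the log2 difference was -0.61 (SE 0.0676, adjusted p 9.46e-06). Mrps6, a small-subunit protein whose bacterial relative sits on the platform, had 23.5, 22.0 and 20.6 FPKM with TGFb, against 37.6, 28.5 and 28.7 FPKM with vehicle. The groups did not overlap, scrambled vehicle 1 was far above its group, and the difference was -0.49 (SE 0.0914, adjusted p 0.000682). Mrpl49, a mitochondria-specific large-subunit protein, had 37.9, 41.4 and 40.9 FPKM with TGFb, against 56.3, 51.0 and 51.5 FPKM with vehicle, a difference of -0.39 (SE 0.0508, adjusted p 3.51e-05) with all TGFb libraries under all vehicle libraries.

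Mrpl27, whose bacterial relative reaches into the peptidyl transferase centre, fell by 0.46 (adjusted p 0.00101). Its values were 35.5, 30.6 and 40.5 FPKM with TGFb, against 52.8, 49.4 and 45.3 FPKM with vehicle. Mrpl14, at the face of the large subunit that meets the small one, fell by 0.36 (adjusted p 0.000756) and averaged 84.6 ± 6.06 FPKM with TGFb and 109 ± 7.91 FPKM with vehicle (SD, n = 3 each; limma). Mrpl34, a short large-subunit protein, had 67.7, 62.5 and 69.1 FPKM with TGFb, against 95.3, 77.7 and 83.9 FPKM with vehicle, a fall of 0.36 (adjusted p 0.000527). In each of these genes the TGFb libraries stayed below the vehicle libraries. Mrps12, at the decoding centre, fell by 0.32 (adjusted p 0.0093), and by 0.19 without scrambled vehicle 1 (adjusted p 0.0215). Mrpl48 fell by 0.31 (adjusted p 0.000811), and Mrps36, the dehydrogenase component, by 0.30 (adjusted p 0.00289). Mrpl33 fell by 0.30 (adjusted p 0.0124), a call lost without scrambled TGFb 1 (-0.24, adjusted p 0.0564) or scrambled vehicle 2 (-0.26, adjusted p 0.0509). The other 9 falls were in Mrpl51, Mrpl18, Mrps18a, Mrpl54, Mrpl28, Mrpl9, Mrps11, Mrpl4 and Mrpl42.

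The 3 rises were in Mrpl1, Mrps31 and Mrps5. Mrpl1 belongs to the mobile stalk beside the site where spent tRNA leaves. It had 6.85, 7.02 and 7.16 FPKM with TGFb, against 5.58, 5.73 and 5.15 FPKM with vehicle, a difference of 0.31 (SE 0.0672, adjusted p 0.00235) between groups that did not overlap. Mrps31, of the small subunit, rose by 0.21 (adjusted p 0.0412). That call was lost without scrambled TGFb 2 or 3, scrambled vehicle 2 or 3, or Bmal1 vehicle 2 (adjusted p 0.0541 to 0.148), and with no filter (adjusted p 0.065). Mrps5, of the small subunit, rose by 0.17 (adjusted p 0.0124) and averaged 47.7 ± 0.446 FPKM with TGFb and 42.2 ± 2.45 FPKM with vehicle (SD, n = 3 each; limma), and without scrambled vehicle 3 its adjusted p was 0.0633.

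Of the 22 calls, 14 held under all 25 alternatives, among them Mrps21, Mrps6, Mrpl49, Mrpl34 and Mrpl1, and that of Mrpl4 was lost with median-of-ratios scaling alone (adjusted p 0.0659). The calls of Mrpl18 (-0.21, adjusted p 0.0749), Mrpl42 (-0.13, 0.0756), Mrpl54 (-0.13, 0.081) and Mrps11 (-0.12, 0.162) were lost without scrambled vehicle 1, against differences of -0.26, -0.18, -0.24 and -0.19 with it. Without that library Mrps21 differed by -0.56, Mrps6 by -0.36, Mrpl27 by -0.41, Mrpl49 by -0.35, Mrpl14 by -0.31 and Mrpl34 by -0.28, all still called. Other single libraries also ended calls: scrambled TGFb 1 that of Mrpl54 (adjusted p 0.101), scrambled TGFb 2 those of Mrpl42 (0.0564) and Mrps11 (0.0799), scrambled TGFb 3 those of Mrpl18 (0.0577) and Mrps11 (0.124), and Bmal1 TGFb 3 and Bmal1 vehicle 3 that of Mrps11 (0.0504 and 0.0528). The mesothelial marker sum moved with this comparison while Msln alone went the other way, as given above. The part of the sum in these differences was not tested.

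**Figure D3:**
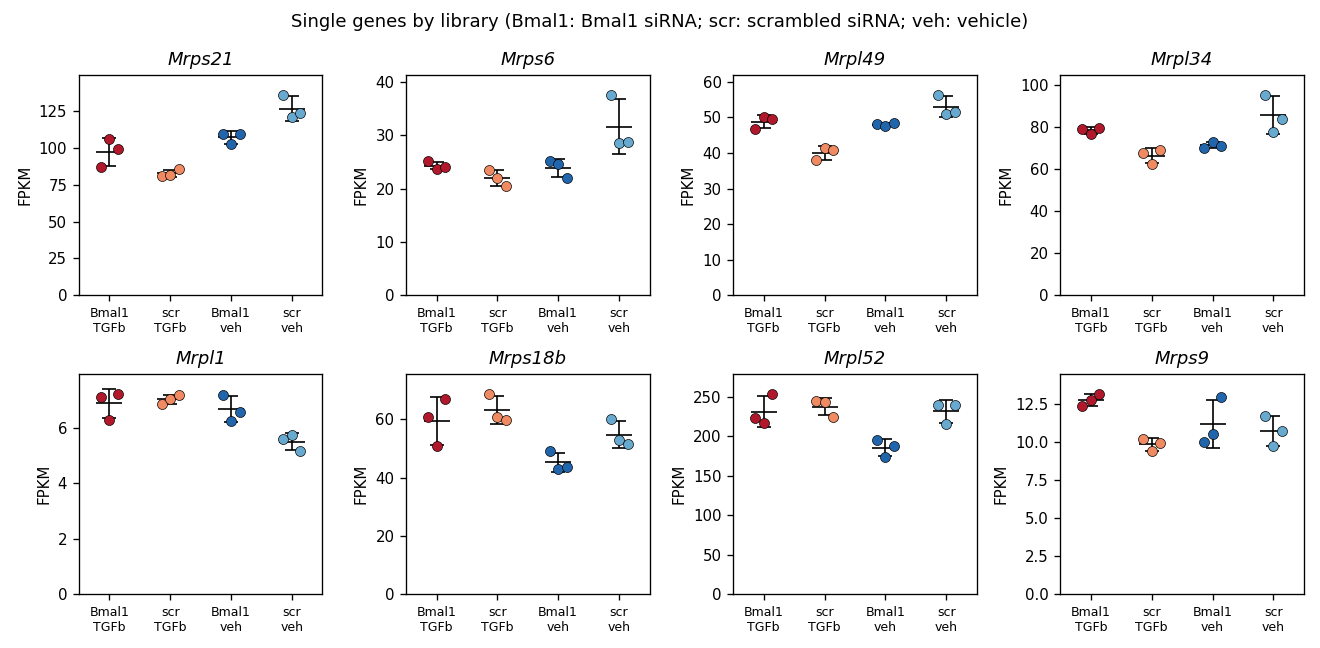
FPKM (vertical axes, starting at 0) of 8 genes in the 12 libraries, by group along the horizontal axes. Points are libraries in replicate order, and bars are the mean and SD of 3. Mrps21 is lowest with scrambled siRNA and TGFb (82.6 FPKM) and highest with scrambled siRNA and vehicle (126 FPKM), and Mrpl52 is lowest with Bmal1 siRNA and vehicle (185 FPKM).

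After Bmal1 siRNA, TGFb raised 14 of the genes and lowered none. That is 17.9% of the 78, against 19% of all genes called in either direction (8.9% higher, 10.1% lower). The median difference was 0.10 over the 78 genes and 0.003 over all genes, and the 3 TGFb libraries lay above the 3 vehicle libraries in 32 of 78 (41.0%), against 17.6% of all genes, and below them in none (against 17.9%).

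Mrpl52, the most abundant of the genes, had 223, 216 and 254 FPKM with TGFb, against 195, 174 and 187 FPKM with vehicle. No TGFb library fell to the vehicle range, and the difference was 0.31 (SE 0.0683, adjusted p 0.00636). Mrps5 had 48.7, 47.4 and 51.2 FPKM with TGFb, against 43.2, 40.9 and 40.2 FPKM with vehicle, a difference of 0.24 (adjusted p 0.00522). Mrpl32, a large-subunit protein known to be matured by the m-AAA protease of the inner membrane, had 27.8, 30.5 and 27.6 FPKM with TGFb, against 25.2, 23.1 and 24.4 FPKM with vehicle, a difference of 0.23 (adjusted p 0.00871). Both genes were separated without overlap, and the calls of Mrpl52, Mrps5 and Mrpl32 were the 3 that held under all 25 alternatives.

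The largest difference was in Mrps18b, of the small subunit, with 60.8, 50.8 and 67 FPKM in TGFb libraries, against 49.1, 42.9 and 43.6 FPKM in vehicle libraries. It was 0.38 (SE 0.095, adjusted p 0.0133), and Bmal1 TGFb 2 lay just above the highest vehicle library. Mrpl36, a very short large-subunit protein, rose by 0.31 (adjusted p 0.0445), Mrpl15 by 0.29 (adjusted p 0.0106), Mrpl12 by 0.29 (adjusted p 0.0197) and Mrps33 by 0.24 (adjusted p 0.0409). Mrps10, of the small subunit, rose by 0.24 (adjusted p 0.0244) and Mrps30, of the large subunit, by 0.23 (adjusted p 0.025). Mrpl20, Mrpl42, Mrps17 and Mrpl16 were the other 4 called.

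Many of these calls were lost with 1 library left out, while the differences kept their sign and moved by less than 1.5 times. The count was 7 without Bmal1 TGFb 1, 4 without Bmal1 TGFb 3, 8 without Bmal1 vehicle 1, and 5 without Bmal1 vehicle 2 as well as without Bmal1 vehicle 3. Of the genes given with values, Mrps18b, Mrpl36, Mrpl12, Mrps33, Mrps10 and Mrps30 lost their calls without Bmal1 TGFb 3 (adjusted p 0.0727 to 0.171), and the same 6 without Bmal1 vehicle 2 (0.0603 to 0.0987). Without Bmal1 vehicle 3 the calls of these 6 and of Mrpl15 were lost (adjusted p 0.0509 to 0.108). Without Bmal1 TGFb 1 those of Mrpl36, Mrpl15, Mrpl12, Mrps10 and Mrps30 were lost (adjusted p 0.0529 to 0.159), without Bmal1 vehicle 1 those of Mrpl36, Mrps33, Mrps10 and Mrps30 (0.0564 to 0.119), and without Bmal1 TGFb 2 that of Mrps33 (0.0811). Leaving out a library of the other siRNA ended the calls of Mrpl36 (scrambled TGFb 2 or 3, scrambled vehicle 3) and Mrps33 (scrambled TGFb 3, scrambled vehicle 2 or 3) at adjusted p-values of 0.0546 to 0.0593 and 0.0553 to 0.0559. Mrpl20 lost its call without Bmal1 TGFb 3 or Bmal1 vehicle 2 or 3 (adjusted p 0.0502 to 0.0691), and Mrps17 without Bmal1 TGFb 3 or Bmal1 vehicle 1 or 3 (0.0571 to 0.125). Mrpl42 lost it without Bmal1 TGFb 1 or 3 or any 1 Bmal1 vehicle library (adjusted p 0.0589 to 0.133), and Mrpl16 without Bmal1 TGFb 1 or 3, Bmal1 vehicle 1 or 2, any 1 scrambled TGFb library or scrambled vehicle 3 (0.0529 to 0.176). The mesothelial marker sum differed between these groups too, and its part was not tested.

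**Figure D4:**
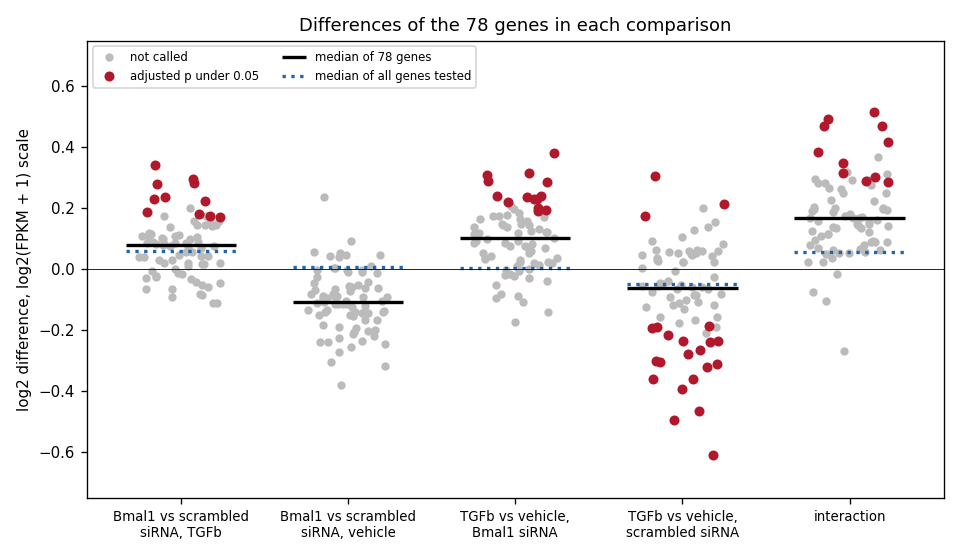
Log2 differences (vertical axis, log2(FPKM + 1) scale) of the 78 genes in the 4 pairwise comparisons and the interaction (horizontal axis). Points are genes, red where called by limma, black lines are medians of the 78 genes and dotted lines medians of all genes tested. The lowest point is Mrps21 at -0.61 under TGFb with scrambled siRNA, and the interaction has its median at 0.17.

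Under TGFb, Bmal1 siRNA raised 11 of the genes over scrambled siRNA and lowered none. That is 14.1% of the 78, against 23.2% of all genes called in either direction (16% higher, 7.16% lower). The median difference was 0.08 over the 78 genes and 0.06 over all genes. The Bmal1 libraries lay above all scrambled libraries in 22 of 78 genes (28.2%), against 28.1% of all genes, and below them in 3 (3.85%, against 11%). Under median-of-ratios scaling, which moved the median of all genes to -0.001, 3 were called higher and 1 lower. This comparison and that of TGFb with vehicle under scrambled siRNA share the libraries of scrambled siRNA with TGFb.

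Mrps9, a small-subunit protein whose bacterial relative reaches toward the tRNA at the peptidyl site, had 12.3, 12.8 and 13.2 FPKM with Bmal1 siRNA, against 10.2, 9.38 and 9.94 FPKM with scrambled siRNA. No values overlapped, and the difference was 0.34 (SE 0.0849, adjusted p 0.0118). Mrpl42, a mitochondria-specific large-subunit protein, had 106, 97.0 and 111 FPKM with Bmal1 siRNA, against 85.4, 84.4 and 87.8 FPKM with scrambled siRNA, a difference of 0.28 (SE 0.0576, adjusted p 0.00403). Mrpl49 had 46.8, 50.04 and 49.6 FPKM with Bmal1 siRNA, against the scrambled values of 37.9, 41.4 and 40.9 FPKM, a difference of 0.28 (SE 0.0508, adjusted p 0.00195). In both genes the Bmal1 libraries were all higher, and their calls held under all 25 alternatives. That of Mrps9 was lost only when both second TGFb libraries were left out (adjusted p 0.0739).

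Mrpl34 rose by 0.24 (adjusted p 0.0185), Mrps21 by 0.23 (adjusted p 0.0275), Mrps36 by 0.23 (adjusted p 0.0328) and Mrpl13, of the large subunit, by 0.19 (adjusted p 0.0387). Mrpl48 rose by 0.18 (adjusted p 0.0417), Mrpl9 by 0.18 (adjusted p 0.0373) and Mrpl32 by 0.17 (adjusted p 0.0349). Mrps21 reached 86.9, 106 and 99.0 FPKM with Bmal1 siRNA, against 80.7, 81.8 and 85.3 FPKM with scrambled siRNA, so that Bmal1 TGFb 1 was close to the scrambled libraries. Mrpl27, at 0.30 (adjusted p 0.0321), was the eleventh call, with 39.8, 47.0 and 44.3 FPKM with Bmal1 siRNA, against 35.5, 30.6 and 40.5 FPKM with scrambled siRNA, which overlapped.

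The count was 5 without Bmal1 TGFb 2, 4 without Bmal1 TGFb 3, 4 without scrambled TGFb 1, 5 without scrambled TGFb 2 and 7 without scrambled TGFb 3. Calls lost without Bmal1 TGFb 2 were those of Mrps21, Mrps36, Mrpl13, Mrpl48, Mrpl9, Mrpl32 and Mrpl27 (adjusted p 0.098 to 0.123), and without Bmal1 TGFb 3 those of Mrpl34, Mrps21, Mrps36, Mrpl13, Mrpl48, Mrpl9 and Mrpl27 (0.0555 to 0.124). Without scrambled TGFb 1 they were Mrps21, Mrps36, Mrpl13, Mrpl48, Mrpl9, Mrpl32 and Mrpl27 (adjusted p 0.0547 to 0.136). Without scrambled TGFb 2 they were Mrpl34, Mrps21, Mrps36, Mrpl9, Mrpl32 and Mrpl27 (adjusted p 0.0607 to 0.12), and without scrambled TGFb 3 Mrpl13, Mrpl48, Mrpl9 and Mrpl32 (0.078 to 0.136). Vehicle libraries left out ended Mrpl13 (Bmal1 vehicle 1 and scrambled vehicle 2, adjusted p 0.0507 and 0.0508), Mrpl48 (Bmal1 vehicle 2 and scrambled vehicle 3, 0.059 and 0.0561) and Mrpl9 (Bmal1 vehicle 3, 0.052).

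Under vehicle, none of the 78 genes passed the test between Bmal1 and scrambled siRNA in limma, where 0.66% of all genes did (0.294% higher, 0.366% lower). At an unadjusted p under 0.05 there were 23 of the 78, against 2433 of all 11208 genes tested. The difference was negative in 67 of 78 genes (85.9%), compared with 47.5% of all genes, and its median was -0.11 over the 78 and 0.008 over all genes. The Bmal1 libraries lay below all scrambled libraries in 20 of 78 genes (25.6%), against 15.1% of all genes, and above them in 1 (against 16.7%). Without scrambled vehicle 1 the median of the 78 was -0.045 and again none was called.

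The 3 smallest p-values belonged to Mrpl52, Mrps6 and Mrpl4. Mrpl52 had 195, 174 and 187 FPKM with Bmal1 siRNA, against 239, 215 and 239 FPKM with scrambled siRNA, a difference of -0.32 (SE 0.0683, adjusted p 0.058) between groups that did not overlap. Mrps6 had 25.1, 24.7 and 22.0 FPKM with Bmal1 siRNA, against 37.6, 28.5 and 28.7 FPKM with scrambled siRNA, a difference of -0.38 (SE 0.0914, adjusted p 0.0683). Mrpl4, which lines the tunnel through which the new peptide leaves, had 84.3, 82.8 and 89.6 FPKM with Bmal1 siRNA, against 105, 95.6 and 94.9 FPKM with scrambled siRNA, a difference of -0.20 (SE 0.0507, adjusted p 0.0736). All 3 genes had every Bmal1 library below every scrambled library. With scrambled vehicle 1 left out the differences were -0.29 for Mrpl52, -0.25 for Mrps6 and -0.15 for Mrpl4 (adjusted p 0.25, 0.25 and 0.278). Without Bmal1 TGFb 2, a library of neither group, 7 genes were called lower and 1 higher, with adjusted p of 0.0274 for Mrpl52, 0.0418 for Mrps6 and 0.0387 for Mrpl4, and without scrambled vehicle 2 there was 1 call. The replicate block gave 6 calls, all lower (adjusted p 0.0204, 0.0143 and 0.0435 for the same genes). The shares of all genes called in these alternatives are not given here.

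The interaction asks whether the TGFb effect after Bmal1 siRNA differed from that with scrambled siRNA, as the first minus the second. It was called in 11 of the 78 genes, all higher after Bmal1 siRNA. That is 14.1%, against 14.4% of all genes called in either direction (8.86% higher, 5.52% lower). It was positive in 74 of 78 genes (94.9%), compared with 62.3% of all genes, with a median of 0.17 over the 78 and 0.06 over all genes. Without scrambled vehicle 1 the count was 8 and the median 0.122. The sign was as one-sided in some other gene groups: the interaction was positive in 80 of 81 cytosolic ribosomal protein genes (median 0.174) and in 77 of 78 nuclear-encoded subunits of the respiratory chain and ATP synthase (median 0.191). It was positive in 15 of 16 mitochondrial translation factors, 18 of 25 assembly and rRNA modification factors and 14 of 20 mitochondrial aminoacyl-tRNA synthetases. For mitochondrial DNA transcription and replication it was 8 of 11, and for biogenesis regulators 2 of 10.

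The interaction uses the same libraries as the other comparisons, so the values of all 4 groups are given side by side. For Mrps21 the TGFb group averaged 97.2 ± 9.56 FPKM and the vehicle group 107 ± 4.09 FPKM after Bmal1 siRNA, and 82.6 ± 2.42 and 126 ± 8.13 FPKM with scrambled siRNA (SD, n = 3 each). The interaction was 0.47 (SE 0.0956, adjusted p 0.00686, limma). Mrpl34 averaged 78.4 ± 1.52 FPKM with TGFb and 71.3 ± 1.42 FPKM with vehicle after Bmal1 siRNA, and 66.4 ± 3.49 and 85.6 ± 8.92 FPKM with scrambled siRNA. Its mean under TGFb was thus above that under vehicle after Bmal1 siRNA and below it with scrambled siRNA, and its interaction was 0.49 (SE 0.0907, adjusted p 0.00397).

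Mrpl42 averaged 105 ± 7.09 FPKM with TGFb and 91.0 ± 0.934 FPKM with vehicle after Bmal1 siRNA, and 85.8 ± 1.74 and 97.9 ± 7.09 FPKM with scrambled siRNA, with an interaction of 0.38 (adjusted p 0.00837). Mrpl49 averaged 48.8 ± 1.79 FPKM with TGFb and 47.9 ± 0.407 FPKM with vehicle after Bmal1 siRNA, and 40.1 ± 1.91 and 52.9 ± 2.92 FPKM with scrambled siRNA, with an interaction of 0.42 (adjusted p 0.00244). Mrps36 averaged 60.3 ± 4.28 FPKM with TGFb and 53.7 ± 3.89 FPKM with vehicle after Bmal1 siRNA, and 51.4 ± 2.19 and 63.7 ± 4.46 FPKM with scrambled siRNA, with an interaction of 0.47 (adjusted p 0.00777). Mrpl42 and Mrps36 show the same crossing as Mrpl34 in their means, while the means of Mrpl49 after Bmal1 siRNA lay closer together than the SD of its TGFb libraries. The rise after Bmal1 siRNA was not called for Mrpl34 or Mrps36, and the Mrps36 libraries of those groups overlapped. For Mrpl42 it was called, but the call was lost with single libraries left out, as given above. The calls of Mrps21, Mrpl34, Mrpl42, Mrpl49 and Mrps36 held under all 24 alternatives, with interactions of 0.42, 0.41, 0.33, 0.37 and 0.43 without scrambled vehicle 1.

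Mrps6 had the largest interaction, 0.52 (SE 0.129, adjusted p 0.0191), with 24.3 ± 0.703 FPKM under TGFb and 23.9 ± 1.69 FPKM under vehicle after Bmal1 siRNA, and 22.0 ± 1.44 and 31.6 ± 5.17 FPKM with scrambled siRNA. It was 0.39 without scrambled vehicle 1 (adjusted p 0.018). Its adjusted p was 0.0513 without scrambled TGFb 3 and 0.0529 without Bmal1 vehicle 3. Mrps11, of the small subunit, had an interaction of 0.35 (adjusted p 0.0328), Mrpl28 of 0.32 (adjusted p 0.0246), Mrpl48 of 0.30 (adjusted p 0.0287), Mrpl4 of 0.29 (adjusted p 0.0173) and Mrpl9 of 0.29 (adjusted p 0.0283). The count of 11 was 7 without scrambled TGFb 3 and 6 without Bmal1 vehicle 2. Without Bmal1 vehicle 2 the calls of Mrps11, Mrpl28, Mrpl48, Mrpl4 and Mrpl9 were lost (adjusted p 0.0537 to 0.0899), and without scrambled TGFb 3 those of Mrps11, Mrpl28, Mrpl48 and Mrpl9 (0.0661 to 0.0804). Without scrambled vehicle 1 those of Mrps11, Mrpl48 and Mrpl9 were lost (adjusted p 0.0571 to 0.0616). Further losses came without Bmal1 TGFb 3 (Mrps11, Mrpl48 and Mrpl9, 0.0524 to 0.062), Bmal1 vehicle 3 (Mrpl28, Mrps11 and Mrpl9, 0.0537 to 0.0655), Bmal1 TGFb 1 (Mrps11, 0.0526), scrambled TGFb 2 (Mrps11, 0.0576), scrambled TGFb 1 (Mrpl48, 0.0624), Bmal1 vehicle 1 (Mrpl48, 0.0661) and scrambled vehicle 3 (Mrpl48, 0.0607).

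Calls fell in both subunits. With scrambled siRNA, TGFb lowered 14 and raised 1 of the 51 large-subunit genes (29.4% called) and lowered 4 and raised 2 of the 26 small-subunit genes (23.1%), against 45.5% of all genes. After Bmal1 siRNA it raised 9 of 51 (17.6%) and 5 of 26 (19.2%), against 8.9% of all genes called higher and 19% called in either direction. Bmal1 siRNA under TGFb raised 8 of 51 (15.7%) and 2 of 26 (7.69%), against 16% of all genes called higher and 23.2% in either direction. The interaction was called higher in 7 of 51 (13.7%) and 3 of 26 (11.5%), against 8.86% of all genes called higher and 14.4% in either direction. Mrps36, counted in neither subunit, was called in each of these except TGFb after Bmal1 siRNA. Median differences of large- and small-subunit genes were within 0.03 of each other in all 5 comparisons, for example 0.167 and 0.165 for the interaction. Genes with a bacterial counterpart and those specific to mitochondria also lay close, with interaction medians of 0.168 and 0.166 and calls in 7 of 46 (15.2%) and 3 of 31 (9.68%).

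The related genes Mrps18a, Mrps18b and Mrps18c, all descended from the gene of the bacterial small-subunit protein of that number, did not share a pattern of calls. Mrps18a, now in the large subunit, averaged 51.8 ± 1.75 FPKM with TGFb and 61.6 ± 7.0 FPKM with vehicle under scrambled siRNA, a called difference of -0.24 (adjusted p 0.00972, limma), and of -0.15 without scrambled vehicle 1 (adjusted p 0.0246). Mrps18b differed by 0.20 in that comparison (adjusted p 0.0992) and by 0.38 after Bmal1 siRNA, as given above. Mrps18c, the small-subunit protein in the bacterial position, stayed between 40.6 ± 3.48 and 44.1 ± 1.37 FPKM in its 4 group means (SD, n = 3 each) and was called in no comparison. Mrps30 was called once, after Bmal1 siRNA. Mrpl58, a peptidyl-tRNA hydrolase built into the large subunit, had group means of 58.2 to 63.3 FPKM and was called in no comparison. Mrpl12, the stalk protein, averaged 128 ± 6.15 FPKM with Bmal1 siRNA and vehicle and 156 to 159 FPKM in the other 3 groups.

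With scrambled siRNA, the genes that TGFb lowered had the shorter transcripts. The median transcript length of the 78 genes was 1224 bases, and with scrambled siRNA it was 802 bases for the 19 genes that TGFb lowered, 3431 bases for the 3 it raised and 1324 bases for those not called. Across the 78 genes, length and the TGFb difference with scrambled siRNA had a Spearman correlation of 0.35, given as a description since the genes share libraries, and across 11196 genes it was 0.16. For TGFb after Bmal1 siRNA it was 0.08 and -0.08. For the interaction the values were -0.36 and -0.29. Without scrambled vehicle 1, an alternative added after the data were seen, they were 0.34 and 0.07 for TGFb with scrambled siRNA, and -0.36 and -0.18 for the interaction. Within libraries, the deviation from the group mean correlated with length across all genes at values of -0.47 (scrambled vehicle 1) to 0.42 (scrambled vehicle 2), and across the 78 genes at -0.21 to 0.24. The part of transcript length in the differences was not tested.

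**Figure D5:**
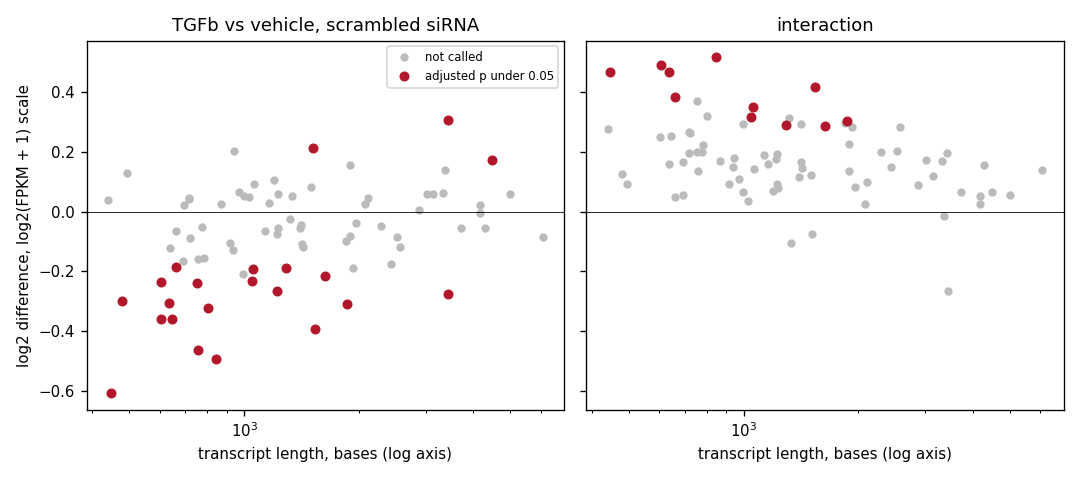
Log2 difference (vertical axes, log2(FPKM + 1) scale) against transcript length in bases (horizontal axes, log scale) for the 78 genes, for TGFb against vehicle with scrambled siRNA (left) and for the interaction (right). Points are genes, red where called by limma. Genes lowered on the left have a median of 802 bases, and those raised 3431 bases.

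Other genes of mitochondrial translation were read from lists for comparison. Of all genes tested, TGFb lowered 29.1% and raised 16.4% with scrambled siRNA, and lowered 10.1% and raised 8.9% after Bmal1 siRNA. Bmal1 siRNA lowered 7.16% and raised 16% under TGFb, and lowered 0.366% and raised 0.294% under vehicle. The interaction was called higher in 8.86% and lower in 5.52%. The 5 ribosomal proteins of mitochondria without an Mrp symbol were called in none of the comparisons. At an unadjusted p under 0.05 there was 1 of 5 for TGFb after Bmal1 siRNA, against 3665 of all 11208 genes tested, and 0 in the others. Of 16 translation factors, TGFb lowered 3 and raised none with scrambled siRNA, and raised 2 after Bmal1 siRNA, among them Pdf, the deformylase of new peptides (0.37, adjusted p 0.00358), while 1 was higher with Bmal1 siRNA under TGFb and 1 was called in the interaction. Of 25 assembly and rRNA modification factors, TGFb lowered 4 and raised 2 with scrambled siRNA, raised 3 after Bmal1 siRNA, 2 were higher with Bmal1 siRNA under TGFb, and 3 were called in the interaction. The assembly factor Mpv17l2 averaged 59.5 ± 1.02 FPKM with Bmal1 siRNA and vehicle and 80.5 ± 8.39 FPKM with scrambled siRNA and vehicle (SD, n = 3 each), a difference of -0.42 (adjusted p 0.0253, limma), the single gene of these lists that Bmal1 siRNA lowered under vehicle. That call was lost without Bmal1 vehicle 2 or 3, scrambled vehicle 1 or 3, or scrambled TGFb 3 (adjusted p 0.0525 to 0.161), and with no filter (adjusted p 0.0611). Of 20 mitochondrial aminoacyl-tRNA synthetases, TGFb lowered 3 and raised 3 with scrambled siRNA and raised 1 after Bmal1 siRNA, and 3 were higher with Bmal1 siRNA under TGFb, among them Vars2 (0.29, adjusted p 0.0069), with 1 called in the interaction. Of 11 genes of mitochondrial DNA transcription and replication, TGFb lowered 1 and raised 2 with scrambled siRNA and raised 1 after Bmal1 siRNA. In the same 11, 1 was higher with Bmal1 siRNA under TGFb and none was called in the interaction. At an unadjusted p under 0.05 the interaction had 3 of 11, against 3304 of all 11208 genes tested. Of 10 biogenesis regulators, TGFb raised 2 with scrambled siRNA, Myc (0.63, adjusted p 0.0026) and Gabpb1, a subunit of the ETS-family factor that binds CCGGAA (0.29, adjusted p 0.0037), and after Bmal1 siRNA 1, Myc (0.52, adjusted p 0.0207), a call lost without Bmal1 TGFb 1 or 3 or Bmal1 vehicle 2 or 3 (adjusted p 0.0718 to 0.0987). Of 78 nuclear-encoded subunits of the respiratory chain and ATP synthase, TGFb lowered 53 and raised 2 with scrambled siRNA, with a median of -0.22, and lowered 4 and raised 4 after Bmal1 siRNA. Bmal1 siRNA raised 16 of these 78 under TGFb and 1 under vehicle, and the interaction was called higher in 16 and lower in 1. Of 81 cytosolic ribosomal protein genes, TGFb lowered 10 and raised none with scrambled siRNA and raised 3 after Bmal1 siRNA, Bmal1 siRNA raised 4 under TGFb, and the interaction was called higher in 3. For TGFb with scrambled siRNA, where 45.5% of all genes were called, the share was 70.5% of respiratory chain and ATP synthase subunits. It was 18.8% of translation factors, 24% of assembly factors, 30% of synthetases and 27.3% of mitochondrial DNA genes. Biogenesis regulators had 20% and cytosolic ribosomal protein genes 12.3%. The messages of mitochondrial DNA were not analysed here.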

How the data were processed

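Total RNA of 12 libraries, 3 in each of 4 groups taken from the sample titles, was sequenced. The authors deposited 1 table of FPKM values, per the file headers. The submitters' processing notes name RSEM, DESeq2, HISAT2 2.0.4, Bowtie2 2.2.5 and the build mm10, but no roles. FPKM is relative to library size, so abundant genes shift all others, and the sources used here give no fragment depth, so counting error is unknown. Of 16290 lines, 555 without identifier (1.304% to 1.464% of FPKM) and 15 repeats were left out. GENCODE M21 gave 15717 of 15720 identifiers a symbol.

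Values were fitted as log2(FPKM + 1), which understates changes of low genes, with limma 3.58.1 in R 4.3.3: group means, intensity trend, two-sided, 8 residual and 5 prior degrees of freedom, Benjamini-Hochberg over 11208 genes. The fit was tested on simulated data. Named were, per comparison, called genes with the 10 largest falls and rises whose groups did not overlap (with under 3 called, the 3 smallest p), the 3 highest and lowest levels, and Mrps18a, Mrps18b, Mrps18c, Mrps30, Mrps36, Mrpl58 and Mrpl12. Further called genes were named after their values were seen. Members, lists, roles and tests were chosen with earlier results of these data known.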

Additional observations from a re-analysis of the deposited data

Results flagged for a closer look

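In 11 of the 78 genes the TGFb effect differed between the siRNAs by the interaction test of limma (adjusted p of 0.00244 to 0.0328 over all genes tested). That is 14.1% of the 78, all called higher, against 14.4% of all genes called in either direction and 8.86% called higher. The difference of the effects, after Bmal1 siRNA minus with scrambled siRNA on the log2(FPKM + 1) scale, was 0.52 for Mrps6, 0.49 for Mrpl34, 0.47 for Mrps21, 0.47 for Mrps36, 0.42 for Mrpl49 and 0.38 for Mrpl42. It was 0.35 for Mrps11, 0.32 for Mrpl28, 0.30 for Mrpl48, 0.29 for Mrpl4 and 0.29 for Mrpl9. Among related genes it was 0.45 for the rRNA methyltransferase Mrm2 (adjusted p 0.0467), 0.45 for Mpv17l2 (adjusted p 0.0103), 0.35 for the deformylase Pdf (adjusted p 0.0365), 0.35 for the assembly factor Mettl17 (adjusted p 0.0363) and 0.32 for the valyl-tRNA synthetase Vars2 (adjusted p 0.0339), by the same test. The call of Mpv17l2 held in all alternatives. That of Mrm2 was lost without any 1 of Bmal1 TGFb 1, 2 or 3, scrambled TGFb 2 or 3, Bmal1 vehicle 2 or 3, or scrambled vehicle 1 or 2 (adjusted p 0.0657 to 0.117). That of Pdf was lost without Bmal1 TGFb 1 or 3, scrambled TGFb 1, 2 or 3, Bmal1 vehicle 2 or 3, or scrambled vehicle 1 or 2 (adjusted p 0.0563 to 0.0922). Mettl17 lost its call without Bmal1 TGFb 1 or 3, scrambled TGFb 2 or 3, Bmal1 vehicle 1 or 2, or scrambled vehicle 1, 2 or 3 (adjusted p 0.0566 to 0.0959). Vars2 did so without Bmal1 TGFb 2 or 3, scrambled TGFb 1, 2 or 3, Bmal1 vehicle 1 or 2, or scrambled vehicle 1 or 3 (adjusted p 0.0547 to 0.0953). The calls of Mrm2, Pdf, Mettl17 and Vars2 were also lost with no filter (adjusted p 0.0509 to 0.0868), median-of-ratios scaling (0.0791 to 0.0854), equal FPKM totals (0.0644 to 0.103) and quantile normalization (0.0621 to 0.0819), and those of Mrm2 and Vars2 without both second TGFb libraries (0.125 and 0.0846).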

How the results depend on the processing

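Median differences moved by less than the spread between replicates (0.077) in all 124 settings. That rule did not check their sign, and some medians were themselves smaller than this spread. The spread includes scrambled vehicle 1, whose median level of the genes was 5.272 on the log2 scale. The other replicates of its group had 5.016 and 5.035. Leaving that library out was thus judged against a limit it had widened, so the rule cannot show that the medians held without it. Median differences without that library are given above. No named gene reversed; over the called or named genes and all settings, 1289 values kept their side of the threshold, 212 lost and 13 gained a call. Counts of called genes moved over 1.5 times in 28 of 124 settings. Bmal1 against scrambled siRNA under TGFb (11): 7 with no filter, 4 with median-of-ratios scaling, 7 with equal totals, 4 with only the groups compared, 31 with array weights, 3 without both second TGFb libraries, and 4 to 14 with 1 library left out. Under vehicle (0): 6 with the replicate block, 1 with only the groups compared, 14 with array weights, 6 without both second TGFb libraries, 0 to 8 with 1 left out. TGFb after Bmal1 siRNA (14): 43 with array weights, 4 to 20 with 1 left out. TGFb with scrambled siRNA (22): 19 to 25 with 1 left out. Interaction (11): 7 with median-of-ratios scaling, 7 with equal totals, 29 with array weights, 6 to 14 with 1 left out. The cause was not tested. FPKM carries no depth, so no limit from counting error can be given. Where a group keeps 2 libraries, the shared spread is assumed. Libraries were treated as unpaired. Correlations of same-numbered deviations were -0.149 to 0.475, and in no comparison were all above 0.1, the rule used. That rule does not show that the libraries were unpaired: between the TGFb groups replicates 1, 2 and 3 gave 0.475, 0.299 and -0.051. The replicate block gave 12, 6, 17, 23 and 13 calls in the order of the comparisons above.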
